A study of Homo sapiens with 30 samples.

Results

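The ERBB receptors and their EGF-like ligands were followed in 5 human breast cancer cell lines cultured with recombinant human BMP7, a secreted bone morphogenetic protein, or with vehicle. The members were every array probe named EGFR, ERBB2, ERBB3, ERBB4, AREG, EREG, HBEGF, TGFA, BTC or NRG1. These were 10 genes with 20 probes, 8 of receptors and 12 of ligands, among 41000 probes with 30484 gene names.

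The lines were HCC1954, MDA-MB-231 and MDA-MB-361 together with T-47D and ZR-75-30, each treated for 30 min, 1, 3, 6, 12 or 24 h. Each array hybridised vehicle-treated RNA, labelled green with Cy3, against BMP7-treated RNA of the same line and time, labelled red with Cy5, which gave 30 arrays with 1 per line and time. Cells of 3 parallel cultures were pooled for each sample, so the culture spread cannot be seen, and the 6 time points of a line stood in for replicates. P-values therefore measured the spread over times of 1 cell line, not over lines of a kind or over independent experiments. ZR-75-30, HCC1954 and MDA-MB-361 are known as lines with ERBB2 amplification, and T-47D and MDA-MB-231 as lines without it. The labels give no copy number, and the lines were compared as lines.

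The ERBB family consists of EGFR, ERBB2, ERBB3 and ERBB4, tyrosine kinase receptors that signal as pairs on the cell surface. ERBB2 has no known ligand of its own and acts as the preferred partner of the other receptors, and ERBB3 has little kinase activity and depends on its partner. Amphiregulin (AREG) and TGF-alpha (TGFA) bind EGFR, heparin-binding EGF (HBEGF), epiregulin (EREG) and betacellulin (BTC) bind both EGFR and ERBB4, and neuregulin 1 (NRG1) binds ERBB3 and ERBB4. The ligands are made as membrane proteins and released by metalloproteases such as ADAM17 and ADAM10. Amplified ERBB2 drives a distinct class of breast cancers and is the target of antibody therapy.

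Levels are given as log2 vehicle signal after scaling between arrays, in which 1 unit is a doubling. Ratios are log2 BMP7 over vehicle, in which a negative value is a lower level with BMP7. A probe was taken as measured on an array where the scanning software marked it well above background. The share of all probes so marked in vehicle ranged from 56.2% to 70.5% over the arrays (median 65.2%). No levels were set against each other across probes, since probes differ in brightness. For each gene the probe with the highest mean vehicle level served as its main probe. In lines, as in any bulk sample, fewer cells that express a gene and less RNA per cell cannot be told apart.

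The cell line labels were set against marker genes. The luminal markers ESR1 and FOXA1 were measured on all 6 arrays of each line but MDA-MB-231, where FOXA1 was on 3 arrays and ESR1 on none. CDH1 was measured on all 30 arrays. Levels of the 8 listed luminal markers differed as well (limma, adjusted p under 0.05, which 46.6% of the pairs over all probes passed). HCC1954 was lower than MDA-MB-361 in 6, ZR-75-30 in 5 and T-47D in 4, and higher in 0. MDA-MB-231 was lower than each of these 3 lines in all 8. Against HCC1954 it was lower in 6 and higher in 2. VIM, a mesenchymal marker, had a mean of 16.85 in MDA-MB-231, 14.35 in HCC1954, 7.74 in T-47D, 7.02 in ZR-75-30 and 4.90 in MDA-MB-361. The list of 5 mesenchymal markers did not all follow VIM in HCC1954. By the same test, HCC1954 had 1 higher and 2 lower than MDA-MB-361, and 2 higher and 1 lower than T-47D. Against ZR-75-30 it had 2 higher and 0 lower, and against MDA-MB-231 0 higher and 4 lower. The basal keratin KRT5 was measured on all 6 arrays only in HCC1954 (mean 12.75). The leukocyte marker PTPRC and the fibroblast markers COL1A2 and DCN were not well above background on any array, whereas CD3E was on all 30 and COL1A1 varied between lines. BMP target genes were checked as the difference in ratio between 3 to 24 h and 30 min. ID1 (1.05, SE 0.239, adjusted p = 0.0490), ID2 (1.14, adjusted p = 0.0130), ID3 (0.92, adjusted p = 0.0254) and SMAD6 (0.57, adjusted p = 0.0426) rose, and SMAD7 stood at 0.20 (adjusted p = 0.402, limma). Of the 5 BMP targets, 4 were therefore called, against 0.571% of all probes.

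In vehicle, each of the 10 genes differed between lines (limma F-test, Benjamini-Hochberg adjusted), against a background of 73.5% of all probes, so that a difference as such was the rule on these arrays. Of the 100 pairs of lines over the 10 genes, 78 passed the threshold, where 46.6% of the pairs over all probes did. What set the genes apart was which line stood high and by how much. The F statistic ran from 440 for ERBB2 and 244 for EGFR to 22.5 for TGFA.

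**Figure D1:**
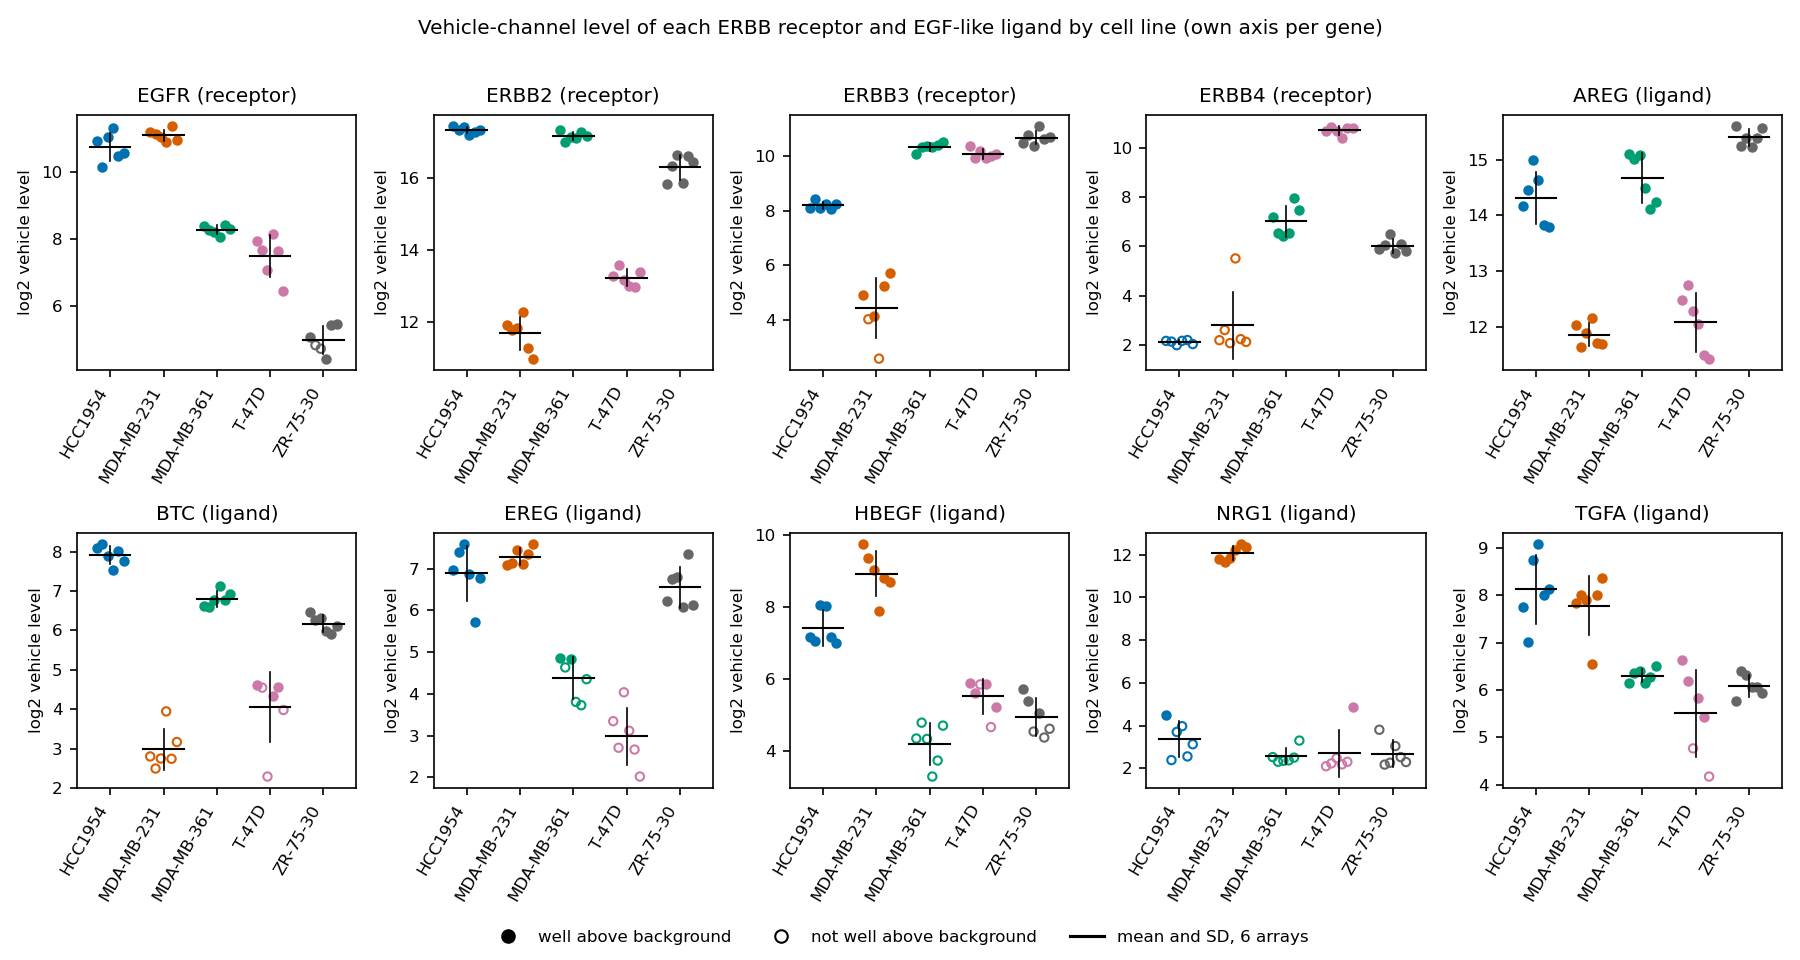
Log2 vehicle level of the main probe of each receptor and ligand on every array, by cell line. Points are the 6 time points of a line, black bars the mean and SD, and arrays not well above background are drawn open. ERBB2 is highest in HCC1954 and MDA-MB-361, ERBB4 in T-47D and NRG1 in MDA-MB-231.

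ERBB2 was measured by its main probe at chr17:35138355-35138414 (hg18). In HCC1954 the vehicle level ran from 17.18 over a median of 17.32 to 17.42, and in MDA-MB-361 from 16.99 over 17.13 to 17.31. In ZR-75-30 it ran from 15.83 over 16.39 to 16.63, in T-47D from 12.96 over 13.22 to 13.57, and in MDA-MB-231 from 10.99 over 11.82 to 12.28. The 3 lines known for amplification lay above the other 2 with no overlap, and no array was saturated at this probe. HCC1954 was 49.7-fold, MDA-MB-361 44.3-fold and ZR-75-30 24.2-fold above MDA-MB-231, and T-47D was 2.91-fold above it. ZR-75-30 was 8.33-fold above T-47D. HCC1954 and MDA-MB-361 differed by 0.17 (95% interval -0.19 to 0.52, adjusted p = 0.463, limma), which the spread over arrays did not resolve.

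Genes next to ERBB2 on 17q12 also differed between lines, in 13 of 14 listed genes against the 73.5% of all probes. In HCC1954 against MDA-MB-231, GRB7, an adaptor that binds ERBB2, was 8.51 higher on the log2 scale, PGAP3 6.22, STARD3 4.96 and MIEN1 4.59. The second ERBB2 probe, at chr17:35120176-35120235, followed the main probe over the 30 arrays with r = 0.91. Relative to its own mean over lines it stood at 2.60 in HCC1954, 1.22 in ZR-75-30 and 0.73 in MDA-MB-361, against -2.14 for T-47D and -2.40 for MDA-MB-231. The same values for the main probe were 2.19, 1.15, 2.02, -1.91 and -3.45. MDA-MB-361 thus came below ZR-75-30 at one probe and above it at the other.

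EGFR (chr7:55242335-55242394) was highest in MDA-MB-231 and HCC1954. Its level ran from 10.88 over a median of 11.07 to 11.35 in MDA-MB-231 and from 10.15 over 10.74 to 11.32 in HCC1954. MDA-MB-361 held an intermediate level (8.05, 8.28 and 8.40), as did T-47D (6.43, 7.66 and 8.15), and ZR-75-30 the lowest (4.42, 4.94 and 5.47), with 4 of 6 arrays well above background. MDA-MB-231 was 68.6-fold above ZR-75-30 (log2 difference 6.10, SE 0.227), and HCC1954 was 5.57-fold above MDA-MB-361. MDA-MB-361 was 1.72-fold above T-47D (adjusted p = 0.00505, limma). MDA-MB-231 and HCC1954 differed by 0.35 (95% interval -0.12 to 0.81, adjusted p = 0.252, limma). HCC1954 was the only one of the 5 lines among the upper pair for both ERBB2 and EGFR.

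ERBB3 (chr12:54782427-54782486) was high in MDA-MB-361, T-47D and ZR-75-30, with line means of 10.34 ± 0.15, 10.08 ± 0.17 and 10.68 ± 0.25 (SD, n = 6). It was lower in HCC1954 (8.19 ± 0.14) and lowest in MDA-MB-231, where levels ran from 2.57 over a median of 4.51 to 5.70 and 4 of 6 arrays were well above background. ZR-75-30 was 76.2-fold above MDA-MB-231 and HCC1954 13.6-fold above it. T-47D was 3.70-fold above HCC1954. The differences among the upper 3 lines did not pass the threshold (limma adjusted p = 0.392, 0.491 and 0.0980), the widest being 0.60 for ZR-75-30 over T-47D (SE 0.294). The 2 further ERBB3 probes followed the main probe with r = 0.95 and 0.79.

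ERBB4 (chr2:211948760-211948819) had its highest level in T-47D, from 10.39 over a median of 10.75 to 10.85. MDA-MB-361 ran from 6.42 over 6.88 to 7.97 and ZR-75-30 from 5.75 over 5.98 to 6.49. In HCC1954 and MDA-MB-231 the main probe was not well above background on any array, and the second probe was on 1 array of MDA-MB-231. T-47D was 12.8-fold above MDA-MB-361, and MDA-MB-361 was 2.02-fold above ZR-75-30 (adjusted p = 0.0297, limma). At the main probe T-47D was at least 88.4-fold above HCC1954 and at least 83.7-fold above MDA-MB-231. These bounds set the mean of T-47D against the dimmest signal that the software marked well above background on the arrays of the other line, and like the bounds further on they hold for this scaling of the signals. The second ERBB4 probe also stood highest in T-47D, 3.54 above its mean over lines, with r = 0.84 between the probes.

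Among the ligands, AREG (chr4:75539382-75539441) was measured on all 30 arrays. It ran from 15.23 over a median of 15.40 to 15.60 in ZR-75-30, from 14.12 over 14.76 to 15.11 in MDA-MB-361 and from 13.80 over 14.32 to 15.00 in HCC1954. T-47D (11.42, 12.16 and 12.76) and MDA-MB-231 (11.63, 11.80 and 12.15) lay below all of these with no overlap. ZR-75-30 was 11.8-fold above MDA-MB-231 and 1.66-fold above MDA-MB-361, and HCC1954 was 4.73-fold above T-47D. Neither MDA-MB-361 over HCC1954 (0.36, 95% interval -0.10 to 0.82) nor T-47D over MDA-MB-231 (0.23, 95% interval -0.23 to 0.69) passed the threshold. AREG and ERBB2 thus shared the same upper 3 lines, though ZR-75-30 led for AREG and was the lowest of the 3 for ERBB2.

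NRG1 had the most uneven pattern. Its main probe ran from 11.67 over a median of 12.03 to 12.49 in MDA-MB-231 and was well above background on 1 array each of HCC1954 and T-47D and on none of MDA-MB-361 or ZR-75-30. MDA-MB-231 was at least 200-fold above MDA-MB-361 and at least 184-fold above ZR-75-30. No fold is given against HCC1954 and T-47D, where the other 5 arrays were dim. Of the 3 further NRG1 probes, 2 gave the same pattern (r = 0.98 for both), and the remaining one was not well above background on any array. MDA-MB-231 was also the line with the lowest ERBB3, and at the main ERBB4 probe it had no array well above background. ERBB3 and ERBB4 are the receptors that bind NRG1.

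HBEGF (chr5:139695692-139695751) was highest in MDA-MB-231, from 7.90 over a median of 8.93 to 9.74, and next in HCC1954 (7.42 ± 0.50, SD, n = 6). It was well above background on 4 of 6 arrays in T-47D, 3 in ZR-75-30 and none in MDA-MB-361. MDA-MB-231 was 2.84-fold above HCC1954 and at least 21.8-fold above MDA-MB-361. T-47D and ZR-75-30 differed by 0.57 (95% interval -0.06 to 1.20, adjusted p = 0.133, limma).

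TGFA (chr2:70528827-70528886) varied least between lines. HCC1954 ran from 7.01 over a median of 8.07 to 9.07 and MDA-MB-231 from 6.55 over 7.95 to 8.37, and these overlapped. MDA-MB-361 (6.31 ± 0.14), ZR-75-30 (6.09 ± 0.24) and T-47D (5.51 ± 0.91; SD, n = 6) were lower, and no pair of these 3 passed the threshold. MDA-MB-231 was 2.78-fold above MDA-MB-361 and HCC1954 6.13-fold above T-47D, which had 4 of 6 arrays well above background.

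EREG (chr4:75472873-75472932) was measured on all arrays of MDA-MB-231 (7.29 ± 0.20), HCC1954 (6.89 ± 0.65) and ZR-75-30 (6.56 ± 0.50), on 2 of 6 in MDA-MB-361 and on none in T-47D. HCC1954 did not differ from either of its neighbours past the threshold. MDA-MB-231 was at least 6.15-fold above T-47D. The second EREG probe was well above background on 2 of 30 vehicle arrays and followed the main probe with r = 0.59. BTC (chr4:75894862-75894921) was highest in HCC1954 (7.91 ± 0.23), 2.16-fold above MDA-MB-361 (6.80 ± 0.20) and at least 12.0-fold above MDA-MB-231, which had no array well above background. MDA-MB-361 over ZR-75-30 came to 0.62 (95% interval 0.06 to 1.19) and missed the threshold after adjustment over all probes (adjusted p = 0.0698, limma).

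**Figure D2:**
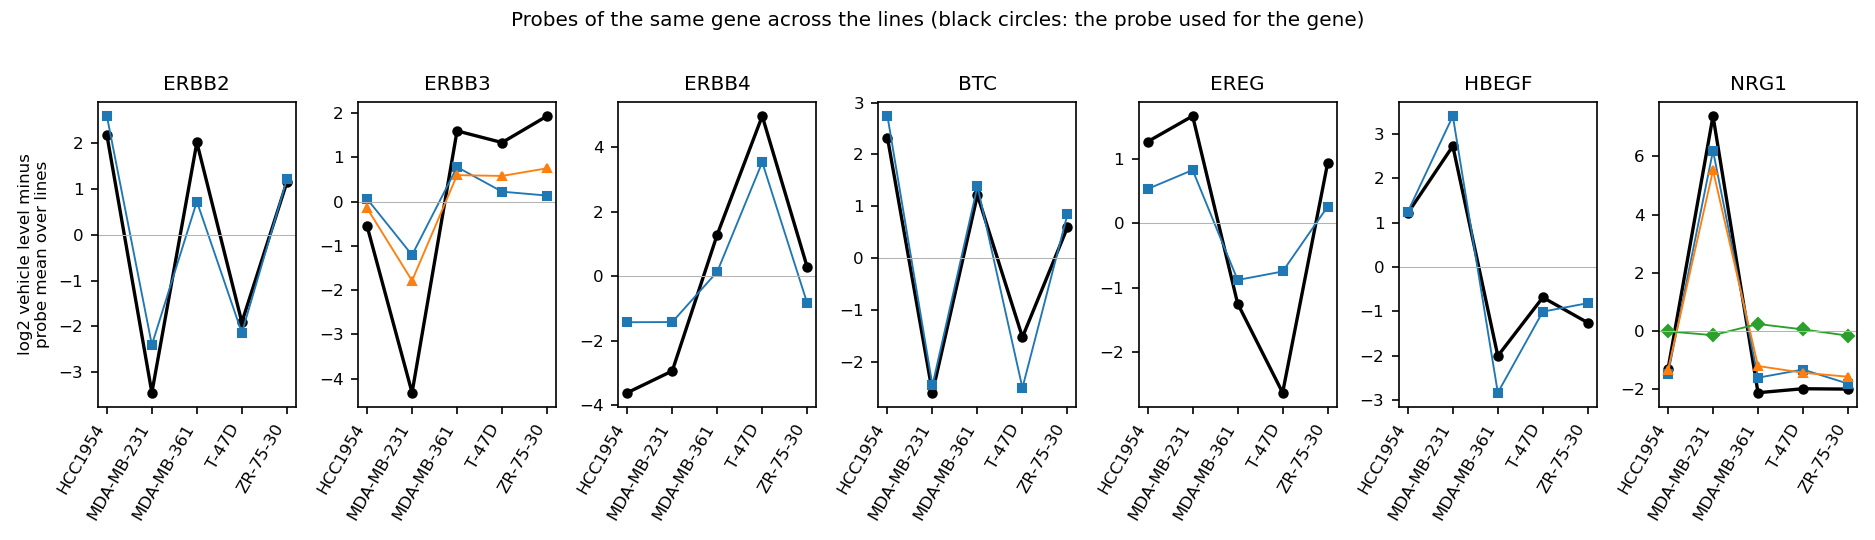
Vehicle level of each probe in each line relative to that probe's own mean over lines (log2), for the genes with more than 1 probe. Each joined series is 1 probe, black circles being the main probe. The NRG1 probe that was not well above background on any array stays near 0, and the other NRG1 probes are highest in MDA-MB-231.

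Of the 20 probes, 19 differed between lines, the exception being the dim NRG1 probe. The plot of probe levels shows that the highest line was the same at both probes of ERBB2, ERBB4, BTC and HBEGF and at the 3 bright NRG1 probes. The second EREG probe was too dim to rank lines. For ERBB3 it was ZR-75-30 at 2 probes and MDA-MB-361 at the remaining one. The genes whose vehicle level was most alike over the 30 arrays, among 16906 probes measured on at least 20 arrays, were CEACAM6 for ERBB2 (r = 0.98), CD44 for EGFR (r = 0.97), ICA1 for ERBB3 (r = 0.98), SLC27A2 for AREG (r = 0.95), FBLN1 for BTC (r = 0.96) and KLHL5 for TGFA (r = 0.94). These correlations describe 5 lines seen on 30 arrays, and arrays of a line share their line. Within the family, the pairs with the highest r were BTC and ERBB2 (0.95) and AREG and ERBB2 (0.88), and those with the lowest were NRG1 and ERBB3 (-0.92), EREG and ERBB4 (-0.88) and HBEGF and ERBB3 (-0.87), of which BTC, NRG1, EREG and HBEGF were dim in some lines.

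How large the differences were depended on the background correction where the lower line was dim. Over the alternatives run, the log2 difference between the highest and the lowest line ranged from 5.14 to 5.82 for ERBB2 and from 3.46 to 3.68 for AREG, which were bright in all lines. For ERBB3, whose lowest line had 4 of 6 arrays well above background, it ranged from 3.85 to 6.50. For EGFR, whose lowest line also had 4 of 6, it ranged from 4.16 to 6.22. The lowest EGFR value came from normexp correction with quantile normalization. With that correction the fitted difference was 4.45 for ERBB4 between T-47D and HCC1954 and 5.63 for NRG1 between MDA-MB-231 and MDA-MB-361. Both were smaller than the bounds given above. For the other ligands with a bound, the lowest difference over the alternatives was also below it. It was 2.29 for HBEGF (log2 bound 4.45), 1.51 for EREG (2.62) and 1.91 for BTC (3.59), each for the lines of its bound. The bounds given above therefore do not hold over the alternatives. The differences between the highest and the lowest line stayed past the threshold in the same direction for all 10 genes.

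Listed genes around the receptors also varied between lines. All 5 of the other EGF family ligands on the array differed, as did 7 of 7 sheddases and their partners, 13 of 13 adaptors and negative regulators and 16 of 17 response genes of the ERK pathway, against the 73.5% of all probes. EPGN, the EGFR ligand epigen, was measured only in HCC1954 (mean 7.78), on all 6 arrays. EGF had a mean of 8.55 in MDA-MB-361, and NRG2 of 6.66 in the same line.

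Vehicle cultures were also compared over time, as 12 and 24 h against the first hour with the line as a block. No member passed the threshold (limma), against 0.00732% of all probes, with 2 members and 3865 probes at an unadjusted p under 0.05. Those members were the ligands HBEGF (late minus early -0.61, SE 0.150, adjusted p = 0.235), and AREG (-0.52, SE 0.136, adjusted p = 0.263). By line, with 2 arrays against 2 and no test, the AREG difference was -1.16 in T-47D, -0.88 in MDA-MB-361, -0.50 in HCC1954, -0.12 in MDA-MB-231 and 0.06 in ZR-75-30. The HBEGF difference at its main probe was below 0 in all 5 lines, from -1.06 in ZR-75-30 to -0.03 in HCC1954. It was -0.80 in both T-47D and MDA-MB-231 and -0.35 in MDA-MB-361. That probe was well above background on 0 of 6 vehicle arrays in MDA-MB-361, 3 in ZR-75-30 and 4 in T-47D. The second HBEGF probe gave 0.40 in MDA-MB-361 and values from -1.76 in T-47D to -0.17 in HCC1954 in the other lines. Of the response genes, FOS (-3.58, SE 0.468, adjusted p = 0.0154) and EGR1 (-2.21, SE 0.304, adjusted p = 0.0195), immediate early transcription factors induced by growth factors, fell over the same span (limma). The median of the 17 response genes was -0.16, beside 0.01 for all probes.

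With BMP7, the mean ratio over the 5 lines did not pass the threshold for any of the 10 genes (limma on line means). This was also so for nearly all probes, 0.00976% of which passed, and the count is no result about the members. At an unadjusted p under 0.05 there were 6324 probes and 1 member, BTC. Its highest line means were 0.24 in T-47D and 0.12 in MDA-MB-231, where both channels were measured on 2 and 0 of 6 arrays. BTC stood at 0.12 (95% interval 0.04 to 0.20, adjusted p = 0.204), EGFR at -0.18 (-0.38 to 0.03; adjusted p = 0.396, and 0.0645 with 30 arrays and the line as a random block) and ERBB2 at -0.11 (-0.24 to 0.03). With normexp background correction and median scaling, ERBB2 turned to 0.37 and passed (adjusted p = 0.0211, limma), where 3146 probes did. The remaining 7 members lay between -0.11 and 0.03. Since no dyes were swapped, a fixed dye bias of a probe would sit in these means. The comparison of 3 to 24 h with 30 min, in which such a bias cancels, also called none of the 10 (limma), against 0.571% of all probes, with 6869 probes and 1 member at an unadjusted p under 0.05. That member was HBEGF (0.30, 95% interval 0.01 to 0.59, adjusted p = 0.274, limma), and EGFR stood at -0.18 (-0.38 to 0.02). By line, without a test, HBEGF was 0.77 in ZR-75-30 and 0.45 in T-47D, measured in both channels on 2 and 3 of 6 arrays. In MDA-MB-231 and HCC1954, measured on all 6, it was 0.27 and 0.14, and in MDA-MB-361, with none measured, -0.13.

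**Figure D3:**
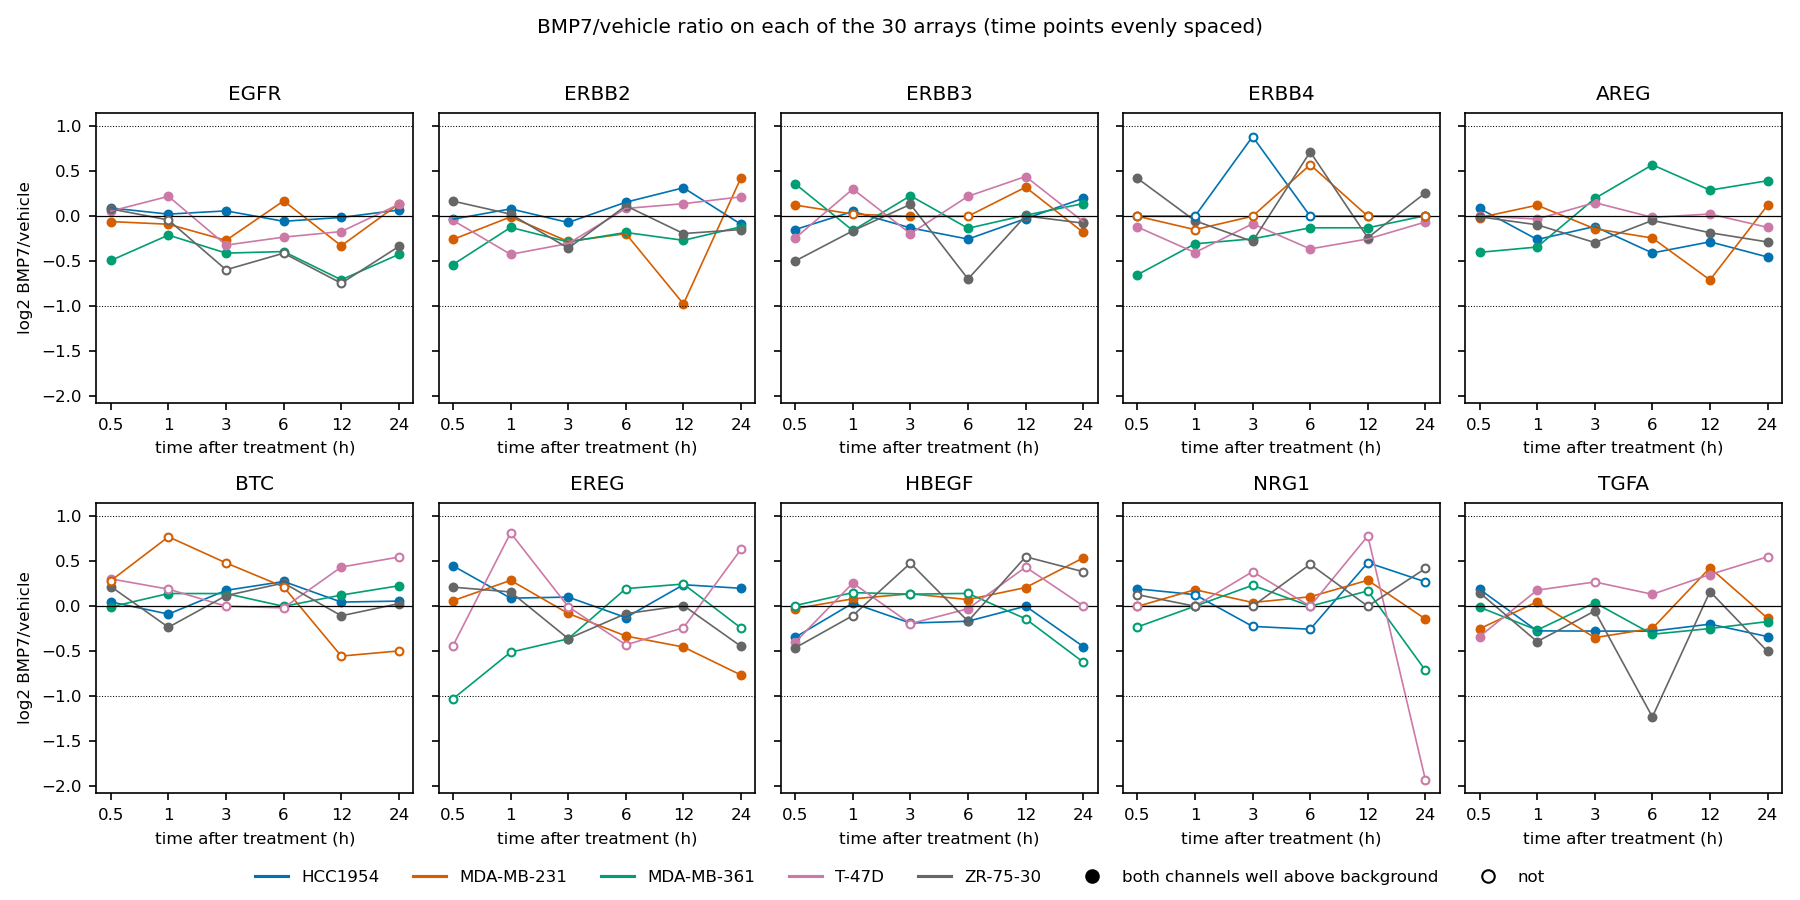
Log2 BMP7/vehicle of each receptor and ligand (main probe) against time, 1 line per cell line. Open points lack a signal well above background in at least 1 channel. EGFR lies below 0 at every time in MDA-MB-361, and the values measured in both channels stay within 2-fold except TGFA in ZR-75-30 at 6 h.

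By line, 2 of the 50 member and line values passed the threshold, both of EGFR and both lower with BMP7. In a line, 1.99% to 11.5% of all probes were called, so the count lies within these shares and is no result about the members. In MDA-MB-361 the EGFR ratio was -0.49, -0.21, -0.41, -0.39, -0.71 and -0.42 from the first to the last time point. All 6 arrays were below 0 and measured in both channels. The mean was -0.44 (SE 0.0841, 95% interval -0.61 to -0.27, adjusted p = 0.00205, limma), and 4.93% of all probes were called lower in this line. It was lost with normexp background correction and median scaling of the ratios (-0.16, adjusted p = 0.351, limma) and with no other alternative run. The 10 spots of the EGFR probe on an array differed by a median SD of 0.0933.

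In ZR-75-30 the EGFR ratio was 0.08 and -0.04 in the first hour and -0.60, -0.41, -0.74 and -0.34 from 3 h on. The mean was -0.34 (adjusted p = 0.0111, limma), and 5.07% of all probes were called lower. EGFR was dim in this line, with both channels well above background on 2 of 6 arrays, and the call was lost without the 3 h array (-0.29, adjusted p = 0.0597), the 6 h array (-0.33, adjusted p = 0.0725) or the 12 h array (-0.26, adjusted p = 0.0598), and with either normexp correction. With only probes measured in both channels, the value was -0.20 (adjusted p = 0.171).

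In the other lines the mean EGFR ratio was 0.03 in HCC1954, -0.05 in T-47D and -0.07 in MDA-MB-231, with arrays on both sides of 0. EGFR was the only member whose ratio differed between lines (F = 5.81, adjusted p = 0.0283, limma), where 11% of all probes did. That count is near the share of all probes and is no result about the members. HCC1954 stood 0.47 above MDA-MB-361 (adjusted p = 0.0187, with 9.55% of probes called), and MDA-MB-361 0.39 below T-47D (difference -0.39, adjusted p = 0.0387, with 9.77% of probes called). The other 8 pairs of lines did not pass, among them HCC1954 over ZR-75-30 (0.37, 95% interval 0.13 to 0.61, adjusted p = 0.119). The call of a difference between lines was lost without the 3, 6, 12 or 24 h arrays.

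**Figure D4:**
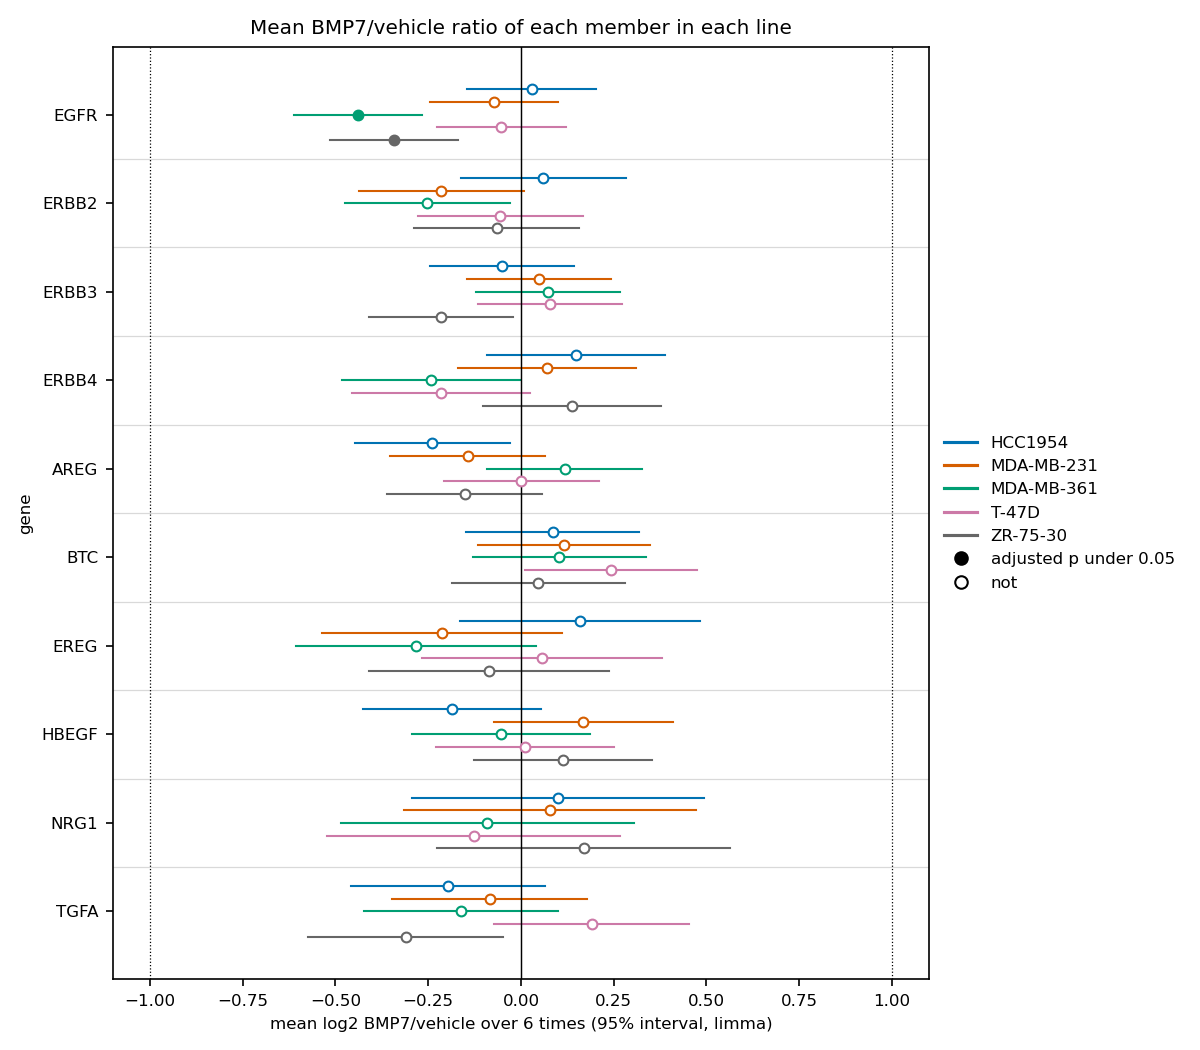
Mean log2 BMP7/vehicle of each member by cell line with 95% intervals from the limma fit (n = 6 arrays per line). Filled symbols mark an adjusted p under 0.05 and dotted lines a 2-fold change. EGFR in MDA-MB-361 and ZR-75-30 are the only filled values.

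ERBB2, the preferred partner of EGFR, had ratios from -0.54 over a median of -0.22 to -0.12 in MDA-MB-361, below 0 on all 6 arrays. Its mean there was -0.25 (95% interval -0.47 to -0.03) and missed the threshold (adjusted p = 0.139, limma). The second ERBB2 probe, also measured in both channels on all 6 arrays, had a mean of 0.13 there, with 5 arrays above 0. ERBB4 in the same line stood at -0.24 (adjusted p = 0.186, limma) and in T-47D ran from -0.40 over -0.19 to -0.06. The second ERBB4 probe, measured on all 6 arrays of T-47D, had a mean of 0.16 in T-47D, with 5 arrays above 0. In MDA-MB-231, ERBB2 ran from -0.97 at 12 h to 0.43 at 24 h, and its 6 arrays did not keep 1 direction. ERBB3 had ratios on both sides of 0 in all 5 lines.

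The ligand ratios gave no call in any line with all 6 arrays. In MDA-MB-361, AREG read -0.40 and -0.34 in the first hour and 0.20, 0.57, 0.29 and 0.39 from 3 h on. It was thus below 0 first and above it later in this line, with 1 array at each time. EREG in MDA-MB-231 was 0.06, 0.29, -0.08, -0.33, -0.45 and -0.77 in the order of time, and HBEGF in the same line -0.03, 0.08, 0.14, 0.07, 0.21 and 0.54. TGFA in ZR-75-30 had a mean of -0.31 (adjusted p = 0.122, limma) that included -1.23 at 6 h. Without the 6 h array it was -0.13 (adjusted p = 0.733, limma), and without the 30 min array it was -0.40 and passed (adjusted p = 0.0458, limma).

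The precision of these ratios depended on the level of the gene. In 34 of the 50 member and line values all 6 arrays were measured in both channels. Their means ran from -0.44 to 0.17 and their 95% intervals from -0.61 to 0.48. In this processing a mean change of 2-fold thus lay outside every one of these intervals. The intervals do not cover the alternatives run, over which the mean of ERBB2 in HCC1954 ranged from 0.01 to 0.93 (lowest adjusted p = 0.00227, limma). In 8 values no array was measured. Where both channels lie at background the software can return a ratio of exactly 0, which occurred in 19 of 300 values, so those intervals are no measure of the gene. Between probes of a gene the ratios followed each other far less than the levels did, with r from -0.45 to 0.50.

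The dimmer probes gave 2 further calls. A second HBEGF probe stood at 0.80 in MDA-MB-361 (95% interval 0.54 to 1.06, adjusted p = 0.000369, limma), where neither HBEGF probe was well above background in vehicle on any array and the main probe gave -0.05. A further ERBB3 probe stood at 0.56 in MDA-MB-231 (adjusted p = 0.0381, limma, n = 5 arrays after an outlier-marked spot was left out), against 0.05 for the main probe.

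Changes on single arrays were rare. Of 223 member values measured in both channels, 1 reached 2-fold (0.448%), TGFA in ZR-75-30 at 6 h, against 0.798% of such values over all probes.

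The genes around the receptors were described in the same way. For 3 to 24 h against 30 min, 1 of 13 adaptors and negative regulators passed the threshold, LRIG3 (-0.53, SE 0.108, adjusted p = 0.0351, limma), and none of 17 ERK response genes, 7 sheddases or 5 other ligands did. The list medians were -0.12 for adaptors, -0.04 for response genes and -0.05 for sheddases, beside 0 for all probes.

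By line, 3, 2, 2, 1 and 0 of the 17 response genes passed. In T-47D, ZR-75-30 and HCC1954 this was near the share of all probes. The 3 of 17 in MDA-MB-361, beside 9.88% of all probes, were not tested against that share. None of these counts is a result about the list. In MDA-MB-361, 3 rose, the ETS factor ETV5 (0.60), the pathway inhibitor SPRY4 (0.45) and IER3 (0.24), and none fell, where 9.88% of all probes were called. In T-47D (11.5% of probes called), FOS rose (0.47) and the MAP kinase phosphatase DUSP4 fell (-0.19). In ZR-75-30 (9.81%), MYC (-0.56) and DUSP4 (-0.18) fell, and in HCC1954 (5.33%) DUSP4 fell (-0.15). No response gene passed in MDA-MB-231, where 1.99% of all probes did. The list median was 0.15 in MDA-MB-361 and -0.12 in ZR-75-30, between -0.03 and 0.02 in the other lines, and 0 for all probes in each.

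Among adaptors and negative regulators, PTPN1 (0.31) and SOCS5 (0.23) rose in T-47D, where 11.5% of all probes were called. In ZR-75-30 (9.81% of probes called), RNF41, a ubiquitin ligase for ERBB3, fell by 0.45, LRIG3 by 0.43 and GRB2, the adaptor that links receptors to RAS, by 0.16, and the list median was -0.16. Of the 7 sheddases and partners, ADAM10 rose in HCC1954 (0.39), where 5.33% of probes were called, and ADAM19 in T-47D (0.30, 11.5% called). In MDA-MB-361 (9.88% called), RHBDF1, a partner of ADAM17, rose (0.26) and ADAM17 itself fell (-0.29). Of the 5 genes listed as other EGF family ligands, TDGF1 rose in HCC1954, MDA-MB-231, T-47D and ZR-75-30 (0.38 to 0.68) and NRG2 fell in MDA-MB-361 (-0.68). This was 1 of 5 in every line, where 1.99% (MDA-MB-231) to 11.5% (T-47D) of probes were called. Sheddases and other ligands had at most 2 calls in a line, and these counts are no result about the lists. TDGF1 was well above background in vehicle on at most 3 of 6 arrays in any line. Its place on the list does not make it a ligand of an ERBB receptor, which was not examined.

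The genes whose ratio was most alike over the 30 arrays were KITLG for EGFR (r = 0.88), MAML1 for ERBB2 (r = 0.88), TRIM38 for ERBB3 (r = 0.85), PDCD6IP for TGFA (r = 0.86), GPR30 for AREG (r = 0.70) and PRKAB2 for BTC (r = 0.65).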

How the data were processed

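RNA of 30 samples was measured on 2-colour Agilent arrays. The authors deposited Agilent Feature Extraction output (version 9.5.1.1 per the file headers, annotation build hg18), which holds the software's dye-normalized log10 ratio per spot with its error, background-corrected processed intensity per channel, mean and background intensity, and flags. The deposited series table holds log2 ratios. The log10 ratios were turned to log2, leaving out controls and spots with an outlier mark. Replicate spots were averaged (10 per array for EGFR and ERBB2). Vehicle intensity was log2-transformed and scaled by Aquantile (limma 3.58.1, R 4.3.3). Fits used lmFit and eBayes across all 41000 probes, p-values being adjusted by Benjamini-Hochberg and called under 0.05. Scripts were tested on simulated data. There were 13 slides and 2 scan batches, of 24 and 6 arrays. The number of arrays limits the precision.

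Members and gene lists were chosen with earlier results of these data known. All members were named, with up to 4 genes per list that passed the threshold with the largest change. NRG3 was not analysed here. Alternatives were other background corrections and scalings, signal filters, batch and block terms, and leaving out each line or time.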

Additional observations from a re-analysis of the deposited data

Results flagged for a closer look

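Of 100 groups of 6 arrays (10 genes, 5 lines, level and ratio), 10 (10%) held 1 array far from the other 5, where chance gives about 1 in 20. Those with signal well above background were the ERBB4 level in T-47D at 6 h (10.39, others 10.68 to 10.85), the TGFA level in MDA-MB-231 at 6 h (6.55, others 7.84 to 8.37), the TGFA ratio in HCC1954 at 30 min (0.19, others -0.34 to -0.20) and the NRG1 level in T-47D at 24 h (4.89, others 2.10 to 2.48). On that last array the NRG1 ratio was -1.93 (others 0 to 0.78), with the BMP7 channel not well above background.

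The others were dim. The BTC level in T-47D at 3 h was 2.29 (others 3.98 to 4.61), the ERBB4 level in MDA-MB-231 at 6 h 5.51 (others 2.07 to 2.61) with a ratio of 0.57 (others -0.15 to 0), the ERBB4 ratio in HCC1954 at 3 h 0.88 (others 0) and the NRG1 level in MDA-MB-361 at 24 h 3.30 (others 2.31 to 2.53). The EGFR ratio differed between lines (limma F = 5.81, adjusted p = 0.0283).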

How the results depend on the processing

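Of 167 values of called results under an alternative, 160 stayed past the threshold in the same direction and 7 lost it. Vehicle differences between the highest and lowest line of a gene, picked in these same data, made up 135, and all stayed. BMP7 ratios by line made up the other 32, of which 25 stayed and 7 lost the threshold. Of 1121 values of results not called, 1113 stayed so, 6 passed, 2 reversed into a call and 114 had another sign without a call. The lower EGFR ratio in MDA-MB-361 ranged from -0.49 to -0.16 and was lost only with normexp background correction and median scaling (-0.16, adjusted p = 0.351, limma), and with scan batch as a term it was -0.42 (adjusted p = 0.00461). In ZR-75-30 it was also lost with normexp and loess (-0.08, adjusted p = 0.336) and normexp and median scaling (-0.04, adjusted p = 1.00).

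With normexp and loess, 1 member was called in T-47D, 2 differed between lines and 0 single values reached 2-fold. With normexp and median scaling, which has no correction by intensity, 1 member was called over all lines (ERBB2, 0.37, adjusted p = 0.0211, limma, from -0.11). In HCC1954 1 was called, also ERBB2. In MDA-MB-231 3 were called, BTC (-0.31, adjusted p = 0.0364, limma, from 0.12), HBEGF and NRG1. BTC was well above background on 0 of 6 arrays there, and HBEGF and NRG1 on all 6. Over all alternatives HBEGF reached 0.37 and NRG1 0.52 in this line. With this scaling 0 were called in MDA-MB-361 and ZR-75-30, 0 differed between lines, and 9 single values reached 2-fold. With both channels well above background, 0 were called in ZR-75-30. With vehicle well above background, 5 members were tested in vehicle and all 5 differed. At 2-fold, 3 single values passed with no signal requirement, 3 with at least 1 channel measured, and 0 at 3-fold. Leaving out 1 time, the count in ZR-75-30 ran from 0 to 2 and that of members differing between lines from 0 to 1. The cause of these changes was not tested.

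Over all probes, counts moved with the processing. The mean over lines called 4 probes, 127 with normexp and loess, 261 with the deposited series table and 3146 with normexp and median scaling. The comparison of times called 234, 64, 39 and 1. By line, normexp and median scaling called 499 against 2184 in HCC1954, 11050 against 816 in MDA-MB-231, 8988 against 4051 in MDA-MB-361, 1 against 4705 in T-47D and 12 against 4019 in ZR-75-30, and 46 against 4506 differed between lines. Time points were shared by lines but paired no cultures (mean correlation of deviations 0.088, lowest -0.388, for ratios), and with time as a replicate block 10 members differed in vehicle, 0 were called in HCC1954, MDA-MB-231 and T-47D, 1 in MDA-MB-361, 1 in ZR-75-30 and 1 differed between lines, so no call changed. Dim genes (ERBB4, NRG1, HBEGF, EREG and BTC in some lines) had too little signal for their ratios to be read. EGFR in ZR-75-30 was measured in both channels on only 2 of 6 arrays.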
